A study of Rattus norvegicus with 9 samples.

Results

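The 3 libraries described here are the vehicle group of a series of 9 RNA-seq libraries, and came from NRK-49F cells kept in TGF-β1 for 48 h. NRK-49F is an established line of rat kidney fibroblasts. Per the labels the cells were wild type, and the treatment was TGF-β1 with vehicle. The libraries were chosen by their labels, TGF-b1 replicates 1 to 3, and no measured value entered the choice. The series' design text calls them biological replicates, but nothing states whether they were separate cultures, so an SD measures the spread between these 3 libraries and may be partly technical. The other 6 libraries, which received TGF-β1 with a compound, are not used, and cells without TGF-β1 are not analysed here. All statements are therefore about levels in cells under TGF-β1, and no gene can be called raised or lowered by it.

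TGF-β1 binds a pair of serine/threonine kinase receptors, which phosphorylate SMAD proteins that move to the nucleus and change transcription. In kidney fibroblasts it is known for driving the myofibroblast state, in which cells deposit collagen and fibronectin and build contractile actin fibres. Collagen chains are hydroxylated and folded in the endoplasmic reticulum, secreted, trimmed, and then crosslinked outside the cell by lysyl oxidases.

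The deposited table lists 22050 gene models with an estimated count and an FPKM value in each library. Total counts were 15813023, 14062768 and 14321352 in replicates 1 to 3. Levels between genes are given as TPM, the deposited FPKM rescaled to sum to 1000000 in each library, which is per length. A gene is called expressed at an FPKM of at least 1 in all 3 libraries. This held for 9893 genes, 44.9% of the table, and 8223 genes, 37.3%, were listed at 0 counts in every library. These shares are the background for the counts of every list and family below. Without replicate 2 the first count was 10209. The threshold is on FPKM and 1 FPKM is not 1 TPM here, so a gene slightly above 1 TPM can lie below the threshold. A gene listed at 0 in all 3 libraries could still account for up to 3 counts of the 44197143 pooled, or 0.0679 CPM (counts scaled to 1000000 per library), from counting error alone. A value of 0 can also mean that reads were assigned to a near-identical copy.

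Replicate 2 stood apart from the other 2 libraries. The common biological coefficient of variation (BCV), the between-library spread beyond counting noise, was 16.9% over all 3 libraries and 5.02% without replicate 2. Without replicate 1 it was 21.9% and without replicate 3 it was 19.3%. The mean chi-square per gene between the counts of 2 libraries, which counting noise alone would hold near 1, was 3.83 for replicates 1 and 3. It was 33.1 for replicates 1 and 2 and 35.02 for replicates 2 and 3. Each level below is given for the 3 libraries separately where a result turns on it, so that replicate 2 can be read apart.

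The fibroblast label was checked against marker genes. Of 14 fibroblast and mesenchymal markers in the table, 9 were expressed. Vim, an intermediate filament of mesenchymal cells, Col1a1, Col3a1, S100a4, Pdgfra, Pdgfrb, Prrx1, Lum and Ddr2 were the expressed ones. The summed level of the markers was 21034, 24439 and 22776 TPM in replicates 1 to 3. Most of this sum came from Col1a1, Vim and Col3a1, with means of 10819, 7100 and 3696 TPM. Other genes widely used to mark fibroblasts were at or near 0. Fap, a surface protease, was listed at 0, Dcn (decorin) had 3 counts over the 3 libraries, and Thy1, a surface glycoprotein, had 16. Nt5e had 8 counts. The epithelial adhesion genes Cdh1 and Epcam were near 0 or at 0, with 3 and 0 counts. Kidney tubule transporters and channels were likewise low: Slc12a1, Aqp2, Umod and Havcr1 were listed at 0, and 2 of 16 kidney epithelial markers were expressed. Those were Krt8 and Aqp1, a water channel, with Aqp1 at 61.4, 72.4 and 55.6 TPM. The 16 kidney epithelial markers summed to 2139, 2487 and 2056 TPM in replicates 1 to 3, most of it Krt8.

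Krt8, a type II keratin of simple epithelia, reached 2076, 2413 and 1999 TPM in replicates 1 to 3, a level within the highest 133 genes. Krt18, the type I keratin it usually pairs with in filaments, was listed at 0 in all 3 libraries, and Krt19 had 2.7 counts. Of 47 keratin rows in the table, 3 were expressed. Whether the Krt18 reads were assigned elsewhere was not tested.

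Markers of the other cell types examined were mostly below the threshold. Of the markers of mesangial cells, pericytes and vascular smooth muscle, 2 of 12 were expressed, Des and Gata3, with a summed level of 15.1, 15.9 and 15.2 TPM. Endothelial markers gave 1 of 11, and that gene was Eng, a TGF-β co-receptor that fibroblasts also carry, while Kdr, Tie1, Emcn, Plvap and Esam were listed at 0. Leukocyte markers gave 2 of 14. Ptprc, the pan-leukocyte CD45 gene, Itgam, C1qa, C1qb and Cd3e were listed at 0, whereas Cd14, a lipopolysaccharide co-receptor, stood at 134, 140.1 and 124 TPM and Cd68, a lysosomal membrane protein, at 75.7, 95.6 and 83.3 TPM. Podocyte markers gave 1 of 7, with Synpo expressed and Podxl listed at 0. No adipocyte, skeletal and cardiac muscle, or erythroid marker was expressed, of 6, 8 and 4 in the table. Neural and Schwann cell markers gave 1 of 9, with Syt1 at 2.98, 2.23 and 3.68 TPM, and cartilage and bone markers 2 of 9, the factors Sox9 and Runx2. In bulk RNA a low level cannot tell fewer cells of a type from less RNA per cell.

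The single gene models of highest level in the TGF-β1-treated fibroblasts code for ferritin, actins, a mitochondrial enzyme subunit and type I collagen, while the family of largest share was the ribosomal proteins. The 10 highest gene models of each library held 10.6 ± 0.438% of TPM (SD, n = 3), the 50 highest 24.5 ± 0.763% and the 100 highest 32.6 ± 0.758%. The 133 models at a mean of 1000 TPM or more held 36.3 ± 0.695%. A further 1587 models between 100 and 1000 TPM held 39.6 ± 0.255%, and 6023 between 10 and 100 TPM held 22.5 ± 0.700%. The remaining 2150 expressed models, each under 10 TPM, held 1.31 ± 0.175%.

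The highest model was Ftl1 (ENSRNOG00000031506), the light chain of the iron store ferritin, at 14443, 15955 and 13924 TPM in replicates 1 to 3. Mt-co1, a catalytic subunit of mitochondrial complex IV, followed at 14231, 11087 and 15757 TPM. A model described as gamma 1 actin-like stood at 13169.5, 14672 and 13192 TPM, and Actb, the other cytoplasmic actin, at 10994, 13723 and 11367 TPM. The means of neighbours in this order differed by less than the sum of their SDs, with 14774 ± 1055 TPM for Ftl1, 13692 ± 2382 for Mt-co1, 13678 ± 861 for the actin model and 12028 ± 1479.8 for Actb. Ftl1, the actin-like model and Actb kept this order in each library, while Mt-co1 lay below Actb in replicate 2 and above Ftl1 in replicate 3.

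Col1a1 (ENSRNOG00000003897), a chain of type I collagen, was next at 9555, 12452 and 10451 TPM. Col1a2, the partner chain, was split over 2 models of the table, which together came to 12376, 15814 and 14008 TPM. Thus the Col1a2 models summed lay above Col1a1 in every library. A thymosin β10-like model, coding for a small actin-binding peptide, stood at 10219, 9341 and 9121 TPM. Gstp1, a glutathione transferase, was at 7467, 8235 and 6824 TPM and Vim at 6875, 7069 and 7357 TPM. Fn1, fibronectin, followed at 5808, 6881 and 6214 TPM and Bgn, the small proteoglycan biglycan, at 5404, 6661 and 5617 TPM. Among the 30 highest, replicate 2 was the highest library for 22 models, Col1a1, Fn1, Bgn and Actb included. It was the lowest library for 6, namely Mt-co1, Mt-cyb, Mt-nd1, Eef1a1, Spp1 and Thbs1.

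**Figure D1:**
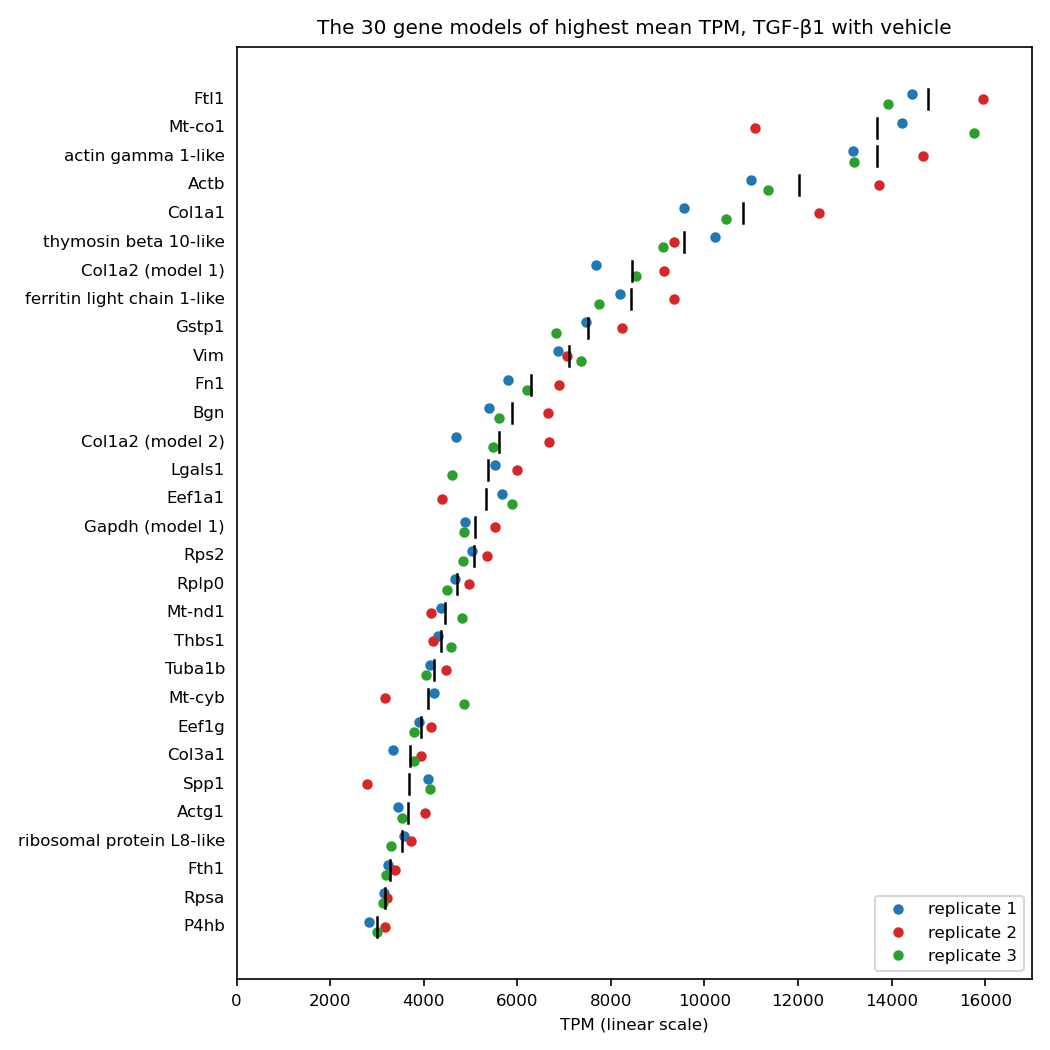
TPM (linear axis) of the 30 gene models of highest mean TPM in the 3 vehicle libraries; points are single libraries and the black line is their mean. Ftl1, Mt-co1, the gamma 1 actin-like model and Actb lie at means of 12028 to 14774 TPM with overlapping libraries, and Spp1 and Mt-cyb are lowest in replicate 2.

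Counted per read rather than per length, the order changed, since long transcripts yield more fragments. Col1a1 then came first with 3.02 ± 0.383% of all counts, Fn1 was second with 2.49 ± 0.187%, and the higher Col1a2 model, listed as NEWGENE_621351, followed with 1.73 ± 0.126%. Col3a1, type III collagen, held 0.844 ± 0.0602% and Thbs1, thrombospondin 1, 0.755 ± 0.03401%. Ftl1, first by TPM, was number 11 by counts, with 0.643 ± 0.0435%.

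By family, cytosolic ribosomal proteins held the largest share among those summed, 10.7, 9.55 and 10.1% of TPM in replicates 1 to 3. Their table rows number 382, many of them copies, and 113 were expressed. The 13 mitochondrially encoded genes held 3.26, 2.47 and 3.54%, and the 44 collagen rows 2.96, 3.72 and 3.295%. Replicate 2 was the lowest library for the mitochondrial genes and the highest for the collagens, by more than the gap between the other 2. Without replicate 2 the mean shares were 3.399% for the mitochondrial genes and 3.13% for the collagens.

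All secreted matrix genes of the lists together, 127 rows, held 6.94 ± 0.507% of TPM and 14.97 ± 1.15% of counts. Collagens alone held 3.32 ± 0.3803% of TPM and 7.91 ± 0.818% of counts, so the choice of unit moved their share by over 1.5 times. For ribosomal proteins, whose transcripts are short, the shift was the other way, from 10.1 ± 0.558% of TPM to 3.44 ± 0.211% of counts. Actins held 2.98 ± 0.2704% of TPM, ferritins 2.65 ± 0.199% and tubulins 1.17 ± 0.0865%. At the other end, 1341 of 1346 olfactory receptor rows and 149 of 150 vomeronasal receptor rows were listed at 0, and none was expressed.

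**Figure D2:**
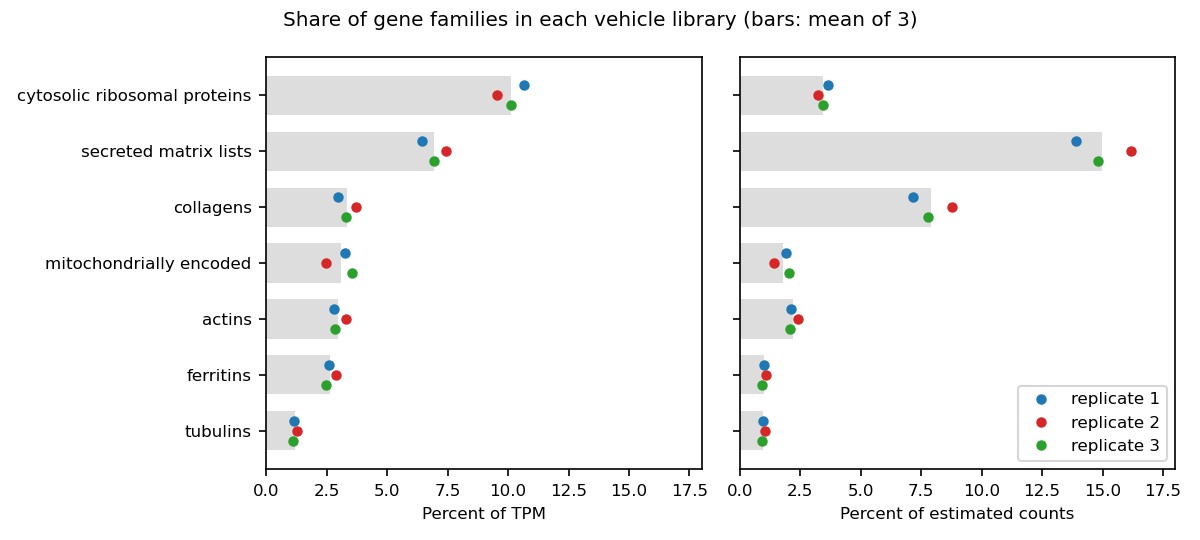
Share of each family in each vehicle library, as percent of TPM (left) and percent of estimated counts (right); bars are means of the 3 libraries and start at 0. Secreted matrix genes rise from 6.94% of TPM to 14.97% of counts, while ribosomal proteins drop from 10.1% to 3.44%.

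Several of the highest genes are uncertain because the table holds near-identical models that can share reads. Tmsb10 itself was listed at 0 while its -like copy had 96157 counts in all. Myh9, the heavy chain of non-muscle myosin, was split as unevenly: the model of that name had a mean of 0.350 TPM and Myh9l1 a mean of 1592 TPM. Ftl1 and its -like copy summed to 22628, 25309 and 21672 TPM, and Actg1 and its -like model to 16616, 18693 and 16728 TPM. With copies summed, these stood first and second in every library.

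Sequences around the transcription start were read for some of the highest genes, to show what their promoters share. Promoters of 13700 genes of the table were matched by symbol in RefSeq's promoter table of rat assembly GRCr8, each covering 250 bases before to 50 after a listed start. A gene is counted when any of its listed starts matched. The motif TATAAA, the core of the TATA box, starting 40 to 20 bases before the start on the sense strand, was found in 2.01% of all these genes. It was found in 0.880% of the 7731 expressed ones and in 4.36% of the 3440 with no count. Among the 96 genes at 1000 TPM or more it was found in 6, or 6.25%: Gapdh, Rplp0, Ccn2, Ppia, Lgals3bp and Calr. Rps2, shown further below, and Anxa2 carry TATAAA just upstream of this window and are not counted. Of the 6 counted, 4 are shown from 45 bases before to 25 from the start on, with TATAAA in capitals.
Gapdh (chr4:159652443-159652512, minus strand): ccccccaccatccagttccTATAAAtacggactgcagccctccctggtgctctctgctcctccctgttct
Ccn2 (chr1:22624590-22624659, minus strand): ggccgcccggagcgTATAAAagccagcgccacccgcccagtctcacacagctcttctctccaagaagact
Ppia (chr14:85493171-85493240, plus strand): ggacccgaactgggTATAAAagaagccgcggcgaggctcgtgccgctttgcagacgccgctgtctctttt
Calr (chr19:40213322-40213391, plus strand): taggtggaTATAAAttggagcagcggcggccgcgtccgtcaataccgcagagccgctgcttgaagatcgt
Gapdh is a glycolytic enzyme, Ccn2 is connective tissue growth factor, Ppia is cyclophilin A, and Calr is the chaperone calreticulin.

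Transcripts of ribosomal proteins often begin with a run of pyrimidines. The letters CTTT, starting within 15 bases of the start on the sense strand, were taken as a simple stand-in for such a run. They were found in 12.6% of all 13700 genes and in 11.2% of the expressed ones. Among the 60 expressed ribosomal protein genes with a promoter they were found in 37, or 61.7%. Expressed elongation and initiation genes gave 3 of 14, or 21.4%. Secreted matrix genes gave 4 of 48, or 8.33%. The letters mark a match and not a site of action, and both motifs and windows were chosen after some of these promoters had been looked at. The elongation factor gene Eef1a1 and the ribosomal protein genes Rps2, Rpsa and Rps3 are shown in the same window, with CTTT in capitals.
Eef1a1 (chr8:88225045-88225114, minus strand): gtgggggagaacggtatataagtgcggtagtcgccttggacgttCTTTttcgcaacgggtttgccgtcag
Rps2 (chr10:14251803-14251872, plus strand): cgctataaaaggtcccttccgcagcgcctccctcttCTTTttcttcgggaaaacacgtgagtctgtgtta
Rpsa (chr8:128728834-128728903, plus strand): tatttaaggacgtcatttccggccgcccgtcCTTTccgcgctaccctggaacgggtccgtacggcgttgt
Rps3 (chr1:163195752-163195821, minus strand): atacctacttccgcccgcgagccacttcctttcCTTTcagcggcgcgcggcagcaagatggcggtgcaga
The CArG box, the binding motif of serum response factor and a known element of contractile genes, was found in 1.45% of all promoters and in 1 of 13 expressed smooth muscle contractile genes in this window. The motif is its own reverse complement, so both strands were read.

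Within the collagens, a narrow subset carried nearly all the RNA. Of the fibrillar collagens, which form the banded fibres of connective tissue, 6 of 11 were expressed, or 54.5% against 44.9% of all genes. Beside type I, Col3a1 stood at 3346, 3941 and 3802 TPM, Col5a2 at 1367, 1428 and 1498 TPM and Col5a1 at 742, 991 and 837 TPM. Col5a3 was lower, at 33.5, 42.5 and 37.8 TPM. The cartilage collagen genes Col2a1 and Col11a2 were at 0 and at 22 counts in all.

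Network and beaded collagens gave 7 of 17, or 41.2% against 44.9% of all genes. The basement membrane chains Col4a1 and Col4a2 stood at 418, 538 and 450.3 and 286, 373 and 299 TPM. Col6a1, at 220.2, 291 and 249 TPM, and Col6a2, at 302, 399 and 322 TPM, code for beaded-filament chains. Col8a1 was at 373, 282 and 396 TPM. The type IV chains of the mature glomerulus, Col4a3 and Col4a4, were at 0 and at 10 counts, and Col15a1 was listed at 0. Of the 14 fibril-associated and membrane collagens, only Col12a1 and Col16a1 were expressed, at 268, 247 and 293 and 257, 332 and 274 TPM. Col14a1 was at 0.0821, 0.0631 and 0.168 TPM.

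The machinery that makes collagen was expressed nearly in full, 23 of 24 genes or 95.8%, with 19 of them at 100 TPM or more. P4hb, a subunit of prolyl 4-hydroxylase, led with 2836, 3171 and 2999 TPM, and Serpinh1, the collagen chaperone HSP47, had 2715, 3054 and 2779.9 TPM. Sparc, a collagen-binding glycoprotein, stood at 2526, 2739 and 2749 TPM. Among the crosslinking enzymes, Lox was at 1084, 775 and 1247 TPM, lowest in replicate 2, Loxl2 at 417, 445 and 453 TPM and Loxl3 at 314, 412 and 327 TPM. P3h2, a prolyl 3-hydroxylase, was the member below the threshold, with 17 counts in all.

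Of the matrix glycoproteins and matricellular proteins, which link fibres to cells, 26 of 37 were expressed, or 70.3%. After Fn1 came Thbs1 at 4314, 4196 and 4583 TPM, Spp1 (osteopontin) at 4097, 2791 and 4139 TPM and Ccn2 at 2779, 2879 and 2931 TPM. Fbln2, a fibulin, was at 1466, 1876 and 1642 TPM and Tgfbi, a TGF-β-induced matrix protein, at 1455, 1606 and 1477 TPM. Postn (periostin) stood at 843, 524 and 919.5 TPM. Spp1 and Postn were lowest in replicate 2, whereas Fn1 and Fbln2 were highest there. Genes of elastic fibres were unevenly represented. Fbn1 (fibrillin 1), Fbln5, Emilin1 and Efemp2 had means of 252, 291, 418 and 765 TPM, but Eln, elastin itself, had 3 counts and Fbn2 and Mfap2 were listed at 0.

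Proteoglycans gave 16 of 30, or 53.3% against 44.9% of all genes. Bgn dominated them, with a mean of 5894 ± 673 TPM against 492 ± 75.9 TPM for Gpc1, a glypican, the next. Vcan (versican) stood at 222, 143 and 225 TPM and Cd44, the hyaluronan receptor, at 414, 403 and 417 TPM. Lum (lumican) was at 47.6, 30.4 and 48.7 TPM, and its relative Dcn was at 0.144, 0.0842 and 0 TPM. Acan (aggrecan) was listed at 0. Has2 was the one hyaluronan synthase expressed, at 11.8, 7.74 and 14.2 TPM.

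Of the basement membrane genes, 10 of 17 were expressed, or 58.8%. The laminin chains Lamb3, Lamc1, Lamb1 and Lama5 had means of 371, 291, 263 and 209 TPM. Lama2 had 1 count and Npnt (nephronectin) was listed at 0. Of the matrix-degrading metalloproteinases, 8 of 19 were expressed, or 42.1%, near the 44.9% of all genes. Mmp2, a gelatinase, stood at 485, 611 and 512 TPM, its membrane-bound activator Mmp14 at 429, 495 and 454 TPM and Mmp3 (stromelysin 1) at 243, 253 and 234 TPM.

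Of the protease inhibitors and plasminogen system genes, most were expressed, 11 of 13 or 84.6%. Timp2, an inhibitor of metalloproteinases, was at 743, 784 and 744 TPM. Timp1 stood at 262, 248 and 252 TPM. The activator Plat (tPA) was at 50.98, 49.02 and 53.1 TPM, while Plau (urokinase) had 1 count and its receptor gene Plaur was at 64.8, 78.4 and 65.5 TPM.

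**Figure D3:**
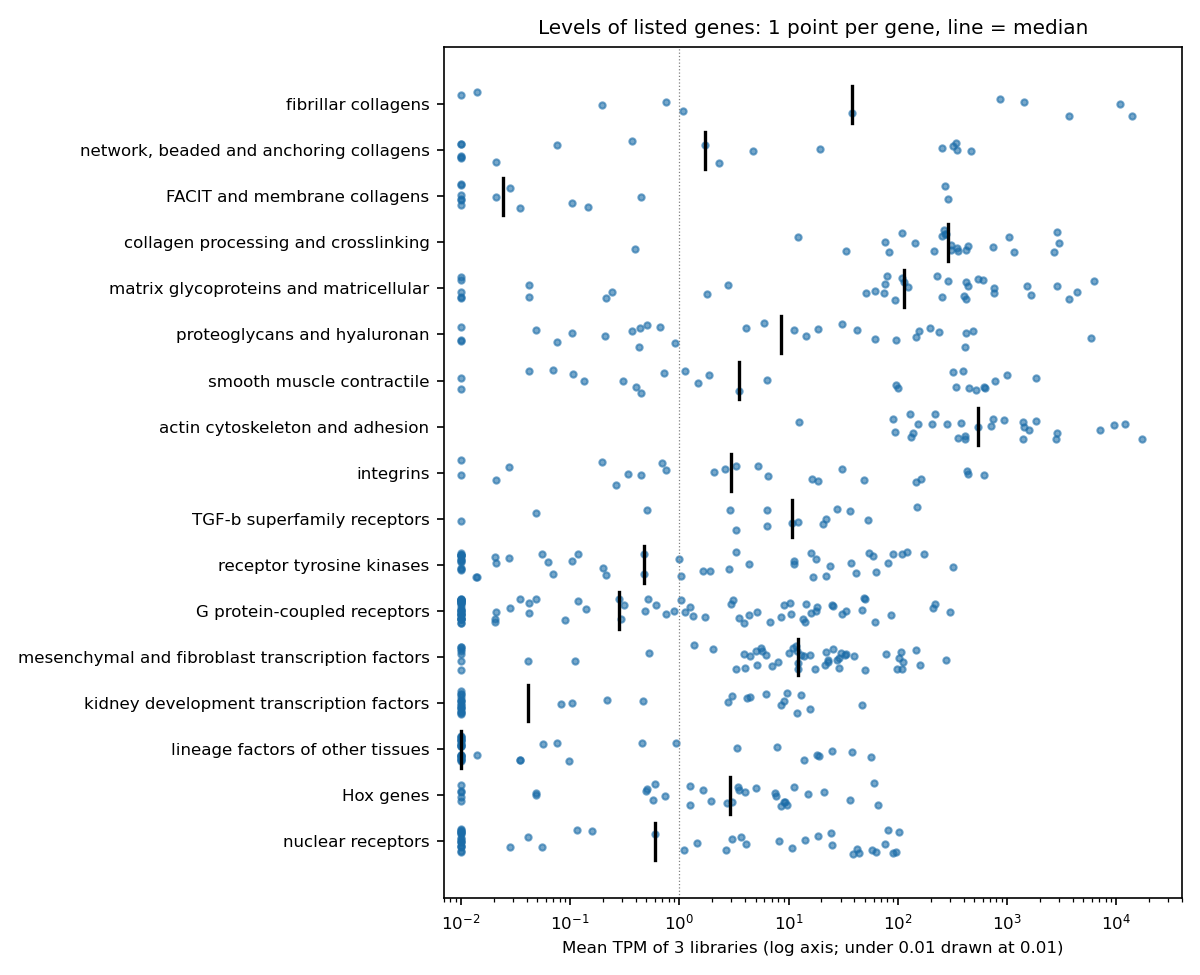
Mean TPM over the 3 vehicle libraries (log axis; values under 0.01, zeros included, drawn at 0.01) for the genes of 17 lists, 1 point per gene, with the list's median as a line. Collagen processing genes and cytoskeletal genes lie mostly at or above 100 TPM, whereas contractile genes, receptors and lineage factors spread from 0 upwards, with medians of 3.52 TPM for contractile genes and 0.477 TPM for receptor tyrosine kinases.

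The contractile genes divided sharply by level. Of 27 in the table, 14 were expressed, or 51.9% against 44.9% of all genes, and 11 stood at 100 TPM or more. Acta2, smooth muscle α-actin and the usual myofibroblast marker, stood at 417, 519 and 422 TPM. Cnn2 (calponin 2) stood at 536, 513 and 508 TPM. Tagln (SM22) was lower, at 93.2, 101 and 107 TPM, and its paralog Tagln2 higher, at 1732, 2059.9 and 1724 TPM. The tropomyosins Tpm1, Tpm2 and Tpm4 had means of 769 ± 69.4, 634 ± 8.68 and 997 ± 182 TPM. Cald1 (caldesmon) was at 393, 209 and 422 TPM, lowest in replicate 2.

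Several genes of the mature smooth muscle motor were listed close to 0. Myh11, its myosin heavy chain, was at 1.601, 1.305 and 1.55 TPM, Cnn1 (calponin 1) had 13 counts in all and Myl9, its regulatory light chain, had 26. Whether reads of Myl9, or of Dcn above, were assigned elsewhere was not tested. Mylk, the kinase for that light chain, was at 0.739, 0.6102 and 0.8403 TPM. Myocd (myocardin), a coactivator of smooth muscle genes, had 12 counts and Lmod1 29. Actc1 and Acta1, cardiac and skeletal actins, were at 0 and 3 counts.

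In contrast, all 29 genes of the general actin cytoskeleton and adhesion list were expressed, 26 of them at 100 TPM or more. The non-muscle motor was the prominent one: the Myh9 models summed to 1475, 1739.9 and 1562 TPM, and the light chains Myl6 and Myl12a stood at 1489, 1386 and 1391 and 1393, 1405 and 1377 TPM. Flna (filamin A), an actin crosslinker, was at 1301, 1600.1 and 1331 TPM and Zyx (zyxin), of focal adhesions, had a mean of 544 ± 78.1 TPM.

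For TGF-β signalling itself, ligands came first. Of the 20 ligand genes of the superfamily list, 12 were expressed, or 60%. Tgfb1 mRNA was at 424, 529 and 427 TPM, Tgfb3 at 189.5, 209 and 211 TPM and Tgfb2 at 69.7, 49.3 and 71.6 TPM. The latent TGF-β binding proteins Ltbp2 and Ltbp3, which hold the ligands in the matrix, had means of 600.4 and 441 TPM. Bmp7, a kidney-protective ligand, was listed at 0, and Gdf15 had 7 counts.

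The receptor mRNAs stood below that of Tgfb1. Tgfbr2, the type II receptor that binds the ligand, was at 54.9, 48.5 and 57.3 TPM. Tgfbr1, the type I receptor that passes the signal on, was at 7.86, 3.703 and 7.33 TPM, and replicate 2 lay below both others. The co-receptor Eng was at 142, 167 and 143 TPM and Tgfbr3 (betaglycan) at 13.8, 9.64 and 13.4 TPM. Bambi, a decoy receptor, was at 29.9, 27.04 and 26.7 TPM. In all, 12 of 15 receptor genes were expressed, or 80%, with 1 at 100 TPM or more.

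Among SMADs and feedback regulators, 13 of 14 were expressed. Smad3 stood at 44.2, 46.8 and 45 TPM, Smad2 at 34.5, 28.5 and 36.7 TPM and the common partner Smad4 at 56.5, 49.5 and 65.1 TPM. The inhibitory Smad7 was at 25.01, 20.1 and 24.7 TPM. Pmepa1, a TGF-β target that dampens the pathway, was highest at 291, 238 and 295 TPM. Smad9 was the member below the threshold, at 32.6 counts in all.

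Integrins, the receptors for matrix, were expressed in 13 of 24 cases, or 54.2% against 44.9% of all genes. Itgb1, the common β1 chain, was at 684, 459 and 708 TPM. Of its partners, Itga11, for collagen, was at 382, 487 and 436 TPM, Itga5, for fibronectin, at 391, 494 and 404 TPM and Itgav at 154, 122 and 160.0 TPM. Itgb6, whose αvβ6 receptor activates latent TGF-β in epithelia, had 17 counts, and Itga4 and the leukocyte chain Itgam were listed at 0. Another leukocyte chain, Itgax, was at 35.6, 39.7 and 34.8 CPM in replicates 1 to 3. Itgb1 was lowest and Itga11 and Itga5 were highest in replicate 2.

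Of the receptor tyrosine kinases, 21 of 52 were expressed, or 40.4% against 44.9% of all genes. Listed at 0 were 11 of the 52, against 37.3% of all genes. Axl, a receptor for Gas6, led with 312, 332 and 323 TPM, followed by Ror2, a Wnt5a receptor, at 166, 185 and 167 TPM. Ddr1, a collagen receptor, was at 117, 135 and 114 TPM. Pdgfrb and Pdgfra were close to each other, at 58.9 ± 5.705 and 54.5 ± 7.95 TPM, and did not differ beyond their spread. Fgfr2 was at 24.6, 22.2 and 24.6 TPM and Egfr at 16.1, 15.9 and 18.1 TPM. Fgfr1, widely expressed in fibroblasts, had 1 count in all. Whether its reads were lost in the counting was not tested.

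Cytokine and innate receptors gave 26 of 39, or 66.7%. Tnfrsf12a, the TWEAK receptor, led at 318, 381 and 333 TPM, with Tnfrsf1a, a TNF receptor, at 179, 210.3 and 178 TPM. Il1rl1, the receptor of interleukin 33, was at 57.6, 36.6 and 66.8 TPM, and Il33 itself was at 94.8, 54.3 and 101 TPM. Tlr4, the lipopolysaccharide receptor, was low, at 5.36, 2.46 and 7.69 TPM.

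Of the G protein-coupled receptors, 29 of 83 were expressed, or 34.9% against 44.9% of all genes. The 30 listed at 0 were a share near the 37.3% of the whole table. The Wnt receptors Fzd1 and Fzd2 stood at 308, 277 and 323 and 205, 254 and 202 TPM and Smo, of Hedgehog signalling, at 207, 220.1 and 205 TPM. The thrombin receptor F2r was at 89.2, 73.9 and 99.4 TPM. The lysophosphatidic acid receptor Lpar1 was at 15.6, 7.72 and 17.5 TPM and the endothelin receptor Ednra at 11.4, 9.17 and 11.2 TPM. The angiotensin receptors Agtr1a, Agtr1b and Agtr2 were listed at 0, as was the chemokine receptor Cxcr4.

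Transcription factors of mesenchyme were widely expressed, 43 of 55 or 78.2% against 44.9% of all genes. Id3, an inhibitor of helix-loop-helix factors, led at 271, 298 and 256 TPM. Snai1, a repressor of epithelial genes, stood at 154, 176 and 148 TPM, and its relative Snai2 at 3.96, 2.44 and 5.61 TPM. Prrx2 was at 115, 113 and 105 TPM, Prrx1 at 89.4, 53.9 and 91.5 TPM and Runx1 at 101, 98.5 and 107 TPM. Twist1 had a mean of 33.1 ± 3.16 TPM and Zeb1 of 10.9 ± 4.04 TPM. Scx (scleraxis), of tendon, had a mean of 13.9 ± 1.34 TPM. Tcf21, Tbx5, Tbx20, Tbx15, Meox1, Meox2 and Runx3 were listed at 0.

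Of the kidney development factors, 11 of 32 were expressed, or 34.4% against 44.9% of all genes. Listed at 0 were 16 of the 32, against 37.3% of all genes. Foxd1, which marks the stromal progenitors of the kidney, was among those at 0, together with Pax2, Six2, Sall1, Lhx1 and Hnf4a. Tfap2a was at 17.1, 14.9 and 15.5 TPM and Meis1 at 12.6, 12.5 and 14.3 TPM. Wt1 had 5 counts and Pax8 25.

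Factors known from other lineages were mostly at 0, 21 of 37, against 37.3% of all genes. Expressed in all 3 libraries were 7, or 18.9% against 44.9% of all genes. Cdx2, a posterior and intestinal homeobox factor, stood at 58.7, 59.3 and 54.1 TPM. Foxa2, an endoderm factor, was at 37.6, 38.7 and 39.2 TPM, and Gata4 at 23.6, 27.2 and 23.97 TPM. Gata6 and Gata2 had means of 13.9 ± 1.01 and 18.1 ± 0.885 TPM. Grhl2, an epithelial factor, was at 8.27, 6.67 and 8.36 TPM, although Esrp1, Ovol1 and Cdh1 were at 0, 5 and 3 counts. Cebpa had a mean of 19.02 ± 2.25 TPM. Pou5f1 had 1 count, and Sox2 and Nanog were listed at 0.

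Hox genes, which record position along the body axis, were expressed in 17 of 34 cases, or 50% against 44.9% of all genes. The highest were Hoxa11, summed over 2 models, at 68.9, 60.1 and 69.9 TPM and Hoxb9 at 57.4, 62.9 and 61.5 TPM. These 2 did not differ beyond their spread, with means of 66.3 ± 5.42 and 60.6 ± 2.89 TPM. Hoxb7 followed at 39.1, 28.99 and 41.1 TPM and Hoxc10 at 20.04, 23.3 and 19.8 TPM. The most posterior group was represented by Hoxd13 at 15.2, 14.8 and 14.8 TPM, Hoxb13 at 11.1, 11.8 and 10.8 TPM and Hoxa13 at 6.32, 4.103 and 4.68 TPM. Hoxc11, Hoxc12, Hoxc13, Hoxb1 and Hoxd1 were listed at 0, and Hoxd11 and Hoxd12 had 1 count each.

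**Figure D4:**
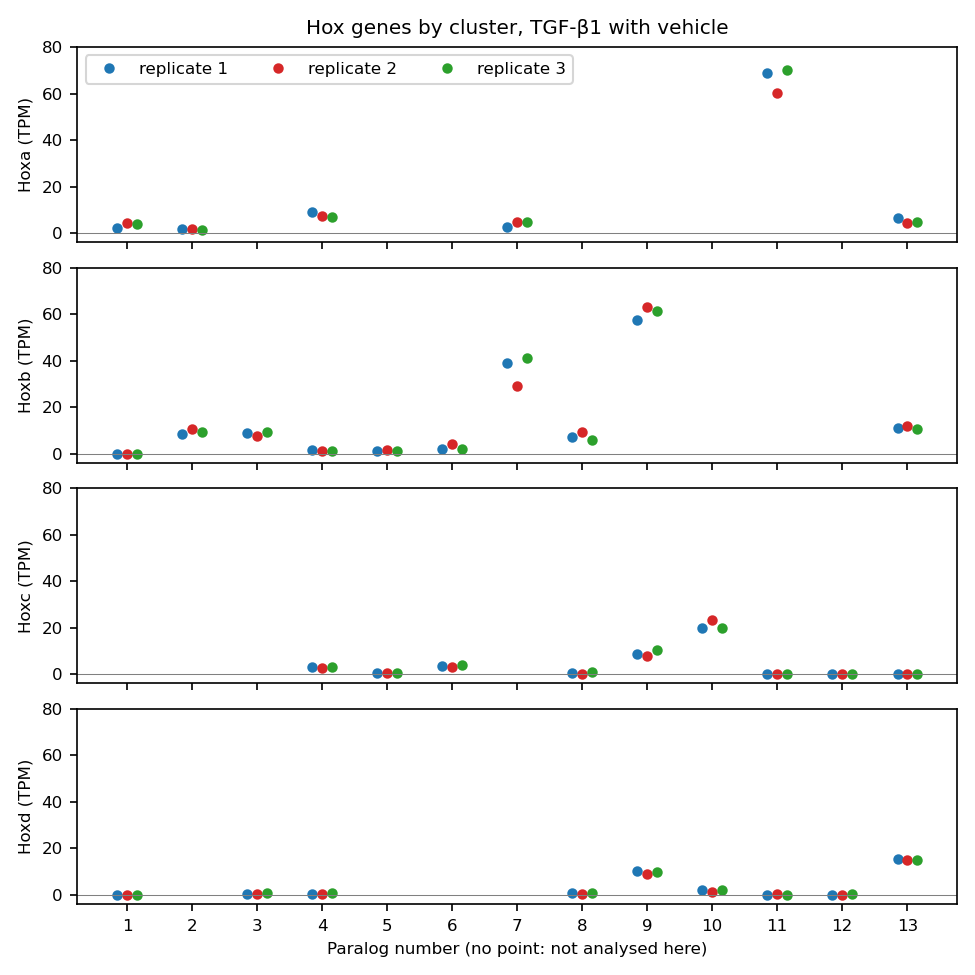
TPM (linear axis) of the 34 Hox genes of the table by cluster (panels) and paralog number (horizontal axis); points are the 3 vehicle libraries. Hoxa11, Hoxb9 and Hoxb7 are the highest, and paralog group 13 is present in clusters a, b and d but at 0 in c.

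Immediate-early factors of the AP-1 group gave 13 of 20, or 65% against 44.9% of all genes. Junb was at 263, 301 and 245 TPM, Fosl1 at 109, 124 and 109 TPM and Myc at 183, 203 and 184 TPM, while Fos was at 1.81, 1.89 and 1.93 TPM. Among effectors of mechanical signalling, 16 of 17 were expressed, with Mrtfa, a coactivator of serum response factor, at 117, 147 and 116 TPM and Yap1 at 90.3, 78.6 and 90.7 TPM. Ankrd1, a commonly used YAP target, was below the threshold at 1.68, 0.252 and 0.819 TPM. Nuclear receptors gave 19 of 45, or 42.2%, near the 44.9% of all genes. The retinoic acid receptors Rara and Rarg stood at 95.7, 114 and 95.8 and 86.6, 98.5 and 86.5 TPM, the glucocorticoid receptor Nr3c1 at 15.7, 7.97 and 18.7 TPM, and Esr1 and Pparg were listed at 0.

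The secreted signals were led by the monocyte chemokine Ccl2 at 852, 563 and 949.6 TPM, with replicate 2 the lowest. Csf1, the macrophage growth factor, was at 315, 317 and 303 TPM, Ccl7 at 212, 195 and 235 TPM and Cxcl10, an interferon-inducible chemokine, at 202, 183 and 172 TPM. Of the chemokines and cytokines listed, 32 of 56 were expressed. Tnf was listed at 0, Il1b had 2 counts and Il11, a cytokine of fibroblast activation, was at 2.11, 1.599 and 1.79 TPM. Among IGF-binding and Wnt genes, Igfbp6 stood at 308, 368 and 298 TPM and Igfbp5 at 144, 120.2 and 155 TPM, while Igfbp3, a known TGF-β target, was listed at 0. Wnt4 was at 32.6, 49.9 and 36.6 TPM, and Sfrp1 and Sfrp2, secreted Wnt inhibitors, were listed at 0.

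The cells carried the transcripts of division. Of the G2/M and mitosis list 33 of 34 were expressed and of the S phase list 28 of 29. Cdk1, the mitotic kinase, was at 214, 197 and 228 TPM, Mki67 at 25.6, 15.7 and 21.7 TPM and Mcm2, of the replicative helicase, at 293, 343 and 289.5 TPM. The inhibitor Cdkn1a (p21) was at 295, 334 and 281 TPM, Cdkn2b was listed at 0 and Cdkn2a had 2 counts. Ccnd1 (cyclin D1) stood at 648, 598 and 658 TPM and Ccnd2 was listed at 0.

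Targets of stress and interferon signalling were examined by level alone, with no comparison to other conditions. All 29 listed targets of the amino acid response factor ATF4 were expressed, with Atf4 at 876, 994 and 946 TPM and the asparagine synthetase gene Asns at 379.9, 388 and 384 TPM. Of the interferon-stimulated genes 33 of 36 were expressed, or 91.7%. Ifi27 was at 1255, 1362 and 1119 TPM, Irf7 at 544, 577 and 487 TPM and Isg15 at 123, 104 and 112 TPM. Glycolysis gave 17 of 19, led by the Gapdh models at 7127, 8080.1 and 7093 TPM, and Slc16a3, a lactate exporter, had 4 counts.

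General biosynthesis was carried by nearly complete lists. All 35 secretory pathway and chaperone genes were expressed, 27 at 100 TPM or more, and they held 1.59 ± 0.0251% of TPM. Hspa5 (BiP), the main chaperone of the endoplasmic reticulum, stood at 668, 582 and 744 TPM and Calr at 1642, 1911 and 1679 TPM. Translation elongation and initiation gave 16 of 17, led by the Eef1a1 models, which carry tRNAs to the ribosome, at 7649, 5936 and 7954 TPM. Cytosolic heat shock genes gave 14 of 15, and the constitutive chaperone Hspa8 stood at 1953, 1599.6 and 2000.2 TPM over its models.

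All 23 iron and redox genes were expressed and held 3.897 ± 0.287% of TPM, the ferritins and Gstp1 included. Fth1, the ferritin heavy chain, was at 3229, 3395 and 3190.1 TPM and Hmox1, heme oxygenase 1, at 54.1, 61.9 and 62.1 TPM. Cathepsins and lysosomal genes gave 17 of 20, with Ctsb (cathepsin B) at 1208, 1439.6 and 1259 TPM and Ctsk, a collagen-cleaving cathepsin, at 0.0821, 0.105 and 0 TPM. Annexins, S100 proteins and galectins gave 19 of 26, led by Lgals1 (galectin 1) at 5533, 5988 and 4614 TPM. Cholesterol synthesis gave 24 of 25 genes expressed. Of the p53 targets and cell cycle inhibitors, 16 of 21 were expressed, or 76.2%.

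The 3 libraries were then set against each other. For each of the 9212 genes averaging 5 CPM or more, 1 library's log2 CPM was compared with the mean of the other 2, and a difference past 1.5-fold was counted. No test applies, since a fold of a single library has no replicate. Replicate 1 had 53 genes higher (0.575%) and 13 lower (0.141%), and replicate 3 had 294 higher (3.19%) and 20 lower (0.217%). Replicate 2 had 55 higher (0.597%) and 1366 lower (14.8%). Since each library is part of the mean the others are set against, genes low in replicate 2 also count towards genes high in the others.

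Among lists with at least 10 genes tested, the mitotic genes had the median furthest from 0 in replicate 2. Their median was -0.53 (log2) against 0.03 over all genes tested, and 15 of 34 were past 1.5-fold lower, or 44.1% against 14.8% of all genes. Top2a, the topoisomerase of chromosome condensation, was at 126, 66.03 and 144 CPM in replicates 1 to 3 and Kif11, a spindle motor, at 38.4, 22.4 and 44.9 CPM. Not every mitotic gene was lower: Ube2c was at 51.1, 58.9 and 49.5 CPM and Cdk1 at 121, 117 and 127 CPM. The S phase genes had a median of 0.05, with 3 of 28 lower, or 10.7%.

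Mitochondrially encoded genes had the next lowest median. All 13 lay below the mean of the other 2 libraries, with a median of -0.44. Past 1.5-fold lower were 3 of 13, or 23.1% against 14.8% of all genes tested. Mt-co2, a complex IV subunit, was at 744, 452 and 805 CPM and Mt-nd1, a complex I subunit, at 1976, 1981 and 2149 CPM, so the difference was unequal among them. TGF-β superfamily receptors had a median of -0.41, with 3 of 11 lower, or 27.3% against the same 14.8%. Their median level was 33.2 CPM. Among all genes tested, 14.9% were lower at 20 to 50 CPM and 27.9% at 5 to 10 CPM. Of the 3 receptors, Bmpr1b averaged 5.67 CPM. Nuclear receptors gave a like share, 5 of 19 or 26.3%, and chemokines and cytokines 6 of 26, or 23.1%. Tgfbr1 was at 19.3, 10.5 and 19.4 CPM and Bmpr1a, a receptor for bone morphogenetic proteins, at 36.1, 22.2 and 41.4 CPM, but Tgfbr2 was at 72.3, 67.4 and 74.3 CPM. Translation elongation and initiation genes had a median of -0.25, with 3 of 17 lower, or 17.6%. Heat shock and interferon-stimulated genes had medians of -0.22 and -0.23, with 4 of 14 and 10 of 33 lower, or 28.6% and 30.3%.

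Most collagens lay on the other side. All 7 fibrillar collagen models tested were higher in replicate 2 than the mean of the others, with a median of 0.34. Of these, 2 are models of Col1a2 that can share reads. Network collagens had a median of 0.40. None of either list passed 1.5-fold. These 2 lists had median levels of 8456 and 491 CPM, and all genes at 100 CPM or more had a replicate 2 median of 0.18. Of the 8 network collagens, 2 lay below 0, among them Col8a1 at 766, 610.1 and 801 CPM, and Col12a1 was also lowest in replicate 2, at 1345, 1306 and 1450.0 CPM. Col1a1 was at 26350.5, 36207 and 28383 CPM and Col4a1 at 1302, 1767 and 1381 CPM. Acta2 was also highest there, at 274, 361 and 274 CPM, whereas Spp1, at 2843, 2042 and 2829 CPM, and Postn, at 1258, 825 and 1352 CPM, were lowest. Glycolytic genes had a median of 0.29 at a median level of 608 CPM, with Aldoa (aldolase A) at 1241, 1742 and 1253 CPM. Of their models 19 of 20 lay above 0, against 4828 of the 9212 genes tested. Gapdh, Tpi1 and Pkm each enter these models through near-identical copies that can share reads. The shift was not limited to collagens and glycolysis. All 10 tubulins and all 10 AP-1 and immediate-early genes tested lay above 0, as did 27 of 30 ATF4 target models. So did 16 of 18 RT1 histocompatibility genes, with a median of 0.34 at a median level of 31.4 CPM.

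Transcript length and level moved with these differences. The length implied by each gene's count and FPKM was used. Of genes under 1000 bases 4.16% were lower in replicate 2, and of those of 6000 bases or more 27.4%. By level, 27.9% of genes at 5 to 10 CPM were lower and 3.87% of those at 100 CPM or more. The length trend in these shares was present within each level class. At 20 to 50 CPM, 7.24% of genes under 2000 bases were lower and 29.3% of those of 4000 bases or more. At 100 CPM or more, these shares were 1.88% and 8.11%. The replicate 2 medians showed no steady trend there, with 0.157 under 2000 bases, 0.208 at 2000 to 4000 and 0.153 above. The mitotic genes had a median length of 2935 bases and a median level of 47.4 CPM, close to the S phase list at 2897 bases and 57.3 CPM. Mitochondrially encoded genes were short, with a median of 784 bases, and fibrillar collagens long, with 4765. The part of length and level in the list medians was not tested.

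**Figure D5:**
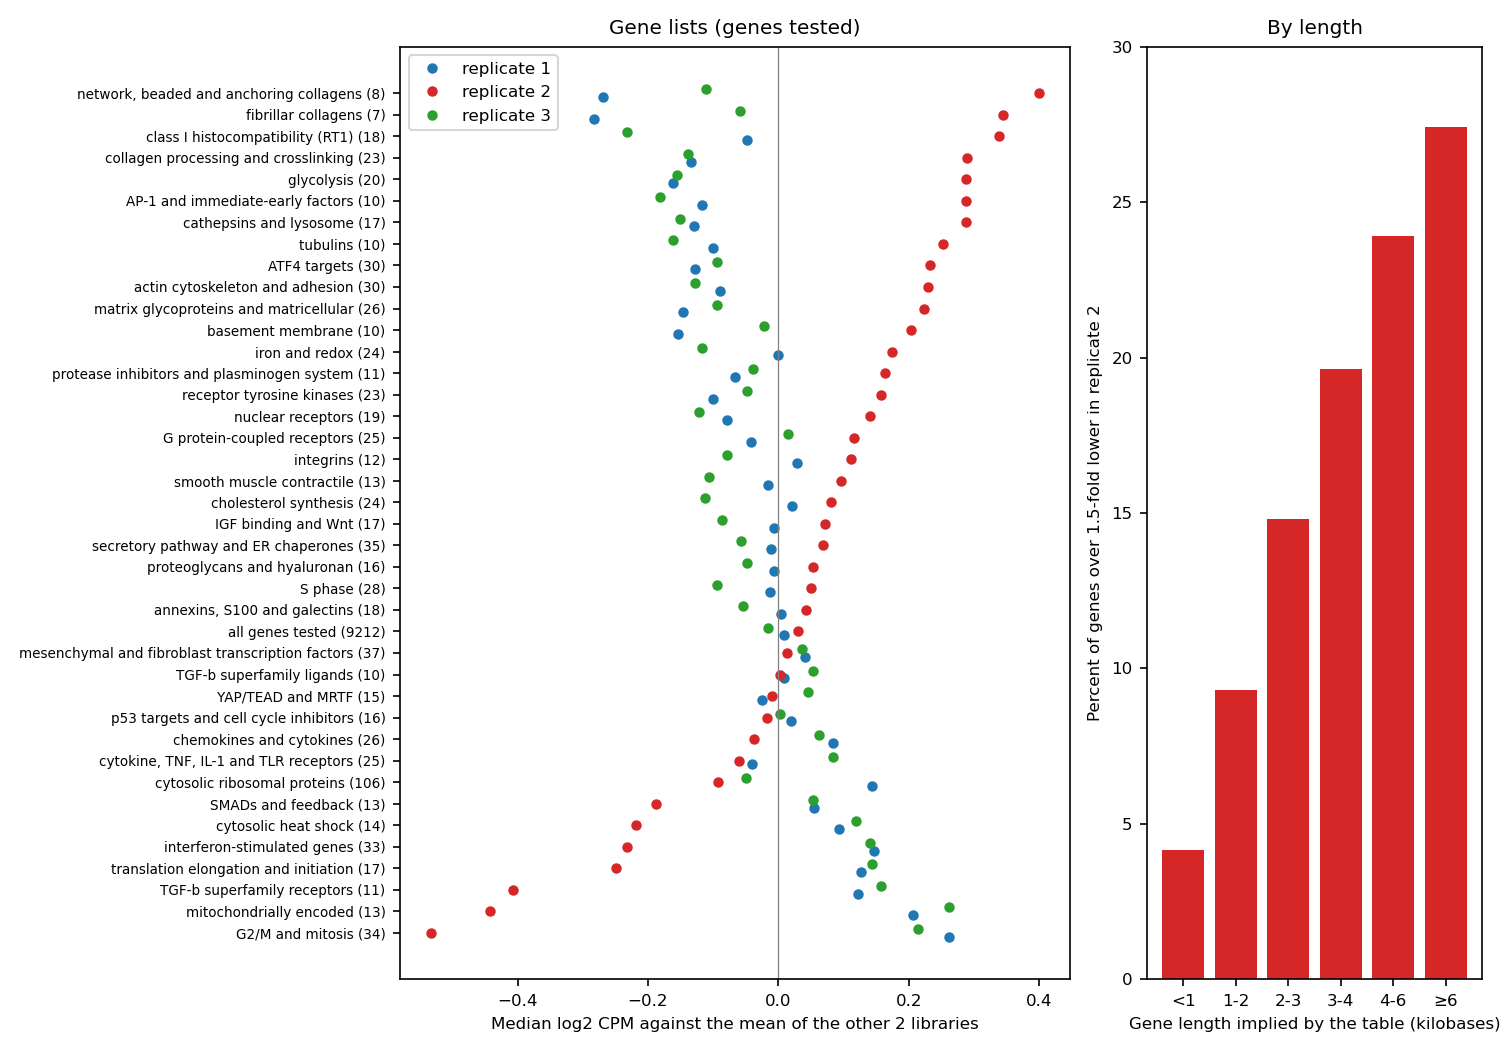
Left, the median log2 CPM of each gene list in 1 library against the mean of the other 2 (lists with at least 10 genes tested, and 2 collagen lists); points are libraries, numbers are genes tested. Right, percent of genes over 1.5-fold lower in replicate 2 by implied length, from 4.16% under 1 kilobase to 27.4% at 6 kilobases or more.

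Several of the largest single-gene differences between libraries involved models with an overlapping, near-identical or related partner model. Whether reads passed between the models of a pair was not tested. Cpne1 (copine 1) had 1191.5, 0.03 and 0 counts in replicates 1 to 3, and Rbm12, an RNA-binding protein gene known to overlap it, had 39.5, 916 and 1127. Their sum was 1231, 916 and 1127, so the difference of 9.08 (log2) for Cpne1 in replicate 1 fell to 0.06 for the sum. Aldh18a1, of proline synthesis, had 1.58, 481 and 0.73 counts, and summed with its near-identical model 7570, 7428 and 6850. In replicate 2 the difference was 7.30 (log2) for Aldh18a1, 0.15 for the other model and 0.25 for the sum. Oas1i had 109.5, 114 and 0 counts and its relative Oas1g 109.5, 114 and 254. LOC100910130, a FAM50A-like model for which no partner was examined, had 0, 153 and 76.3 counts. Among other genes, Tlr4 was at 8.48, 4.11 and 11.97 CPM, highest in replicate 3. Vps50, of endosomal sorting, was at 23.4, 9.34 and 28.5 CPM and Stk17b, a kinase, at 22.3, 9.11 and 25.5 CPM, both lowest in replicate 2. Srm (spermidine synthase) was at 13.2, 0.299 and 6.77 CPM, from estimated counts of 214, 4.06 and 99.2. No partner was examined for Srm.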

How the data were processed

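Per the labels' protocols, RNA of NRK-49F cells was isolated with Trizol, mRNA was enriched on oligo(dT) beads, and libraries were made with an NEBNext Ultra RNA kit. Strand use in the counting is not stated, so reads of overlapping genes cannot be told apart. The submitters' processing notes name edgeR, DESeq2, RSEM and StringTie 1.3.1 without saying what each did; aligner, genome build and annotation are not given in the sources used here. For each gene the authors deposited estimated counts and FPKM, both per library; of counts above 0, 8.54% were not whole. The deposited table of group means was not used.

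TPM values were computed by rescaling the deposited FPKM over all 22050 models. For 12 genes, models with a near-identical or same name were summed, a choice made after the values were seen; 2 list genes were matched through a synonym. Library differences used counts rounded to whole numbers, TMM factors of edgeR 4.0.16 in R 4.3.3 and a prior count of 2. The BCV is the square root of edgeR's common dispersion over genes averaging 1 CPM or more. With 1 group there is no contrast, and no p-value is given. Counts were simulated at a BCV of 5%, with 200 genes changed 2-fold in replicate 2, as many up as down. Of these, 196 passed 1.5-fold in the set direction, 4 unchanged genes did, and the BCV found was 4.95%. The set BCV was near the 5.02% found without replicate 2 and below the 16.9% over all 3 libraries. The simulation therefore gives no error rate for the replicate 2 counts.

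The lists, 41 of gene groups and 11 of markers, had 1315 entries and 1266 symbols, of which 1228 were in the table. The members and lists were chosen with earlier results of these data known. Named are the 30 highest models, list members (first the highest and those with almost no count), and the 12 highest and lowest genes per library, from which a few are printed; other list members were named after their values were seen. Alternatives were other thresholds, units, denominators, scalings (DESeq2 1.42.0 size factors, total counts), filters and folds, and each library left out; the summing of models and the split of length by level were added after seeing the data. Intervals and floors cover counting error only. Tables were made with Python 3.11.15, numpy 2.4.6 and pandas 2.3.3.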

Additional observations from a re-analysis of the deposited data

How the results depend on the processing

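No paired analysis was possible because only 1 group was analysed and no contrast was tested. The count of expressed genes stayed within 1.5 times of 9893 under every threshold tried, from 7124 at an FPKM of at least 5 to 10876 at 10 counts or more, with 10562 at an FPKM of 0.5. Shares depended on the unit. As shares of counts, the 50 highest genes held 25.3%, ribosomal proteins 3.44%, mitochondrially encoded genes 1.79%, collagens 7.91%, secreted matrix genes 14.97% and actins 2.20%. As shares of TPM without mitochondrially encoded and ribosomal protein genes, collagens held 3.83%, matrix genes 7.99% and actins 3.43%. With a library left out, the 50 highest genes held 24.0% to 24.8%, collagens 3.13% to 3.51% and mitochondrially encoded genes 2.87% to 3.40%.

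Counts of genes past 1.5-fold in a single library depended on the filter, the fold and the unit. For replicate 1, 66 genes became 120 with total counts as the scale, 321 at a mean of at least 1 CPM, 5 at 20 CPM, 10 at 2-fold and 35 on log2(FPKM + 1). For replicate 2, 1421 genes in either direction became 633 at 20 CPM and 191 at 2-fold, and the 1366 lower ones 620 and 186. For replicate 3, 314 genes became 670 at 1 CPM, 94 at 20 CPM, 16 at 2-fold and 182 on log2(FPKM + 1). With the 3 model pairs of Cpne1, Aldh18a1 and Oas1i summed, the counts were 61, 1417 and 309 in replicates 1 to 3. The BCV of 16.9% lay between 5.02% and 21.9% with a library left out. Other size factors shift all genes of a library alike and are no check on single genes. Precision is limited by 3 libraries and, for genes of a few counts, by depth.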
